A study of Mus musculus with 4 samples.

Results

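The checkpoint and CD28 family receptors are the surface proteins through which a T cell reads costimulation and restraint beside its antigen receptor. The 10 genes Pdcd1, Ctla4, Lag3, Havcr2, Tigit, Btla, Cd160, Cd28, Icos and Vsir were taken by gene symbol from the count tables, which list 31748 symbols, and all 10 were found. They were measured by RNA-seq in 4 libraries of mouse spleen T cells. The 2 KO libraries are labelled as CD4+ T cells of TEaMthfd2 KO mice and the 2 WT libraries as CD4+ T cells of TEaWT mice. Mthfd2 encodes an enzyme of the folate cycle in mitochondria, and the TEa transgene encodes a T cell receptor for an alloantigen peptide. In both groups the T cells came from 8-week-old mice by positive magnetic selection and were kept for 3 days with mitomycin-treated splenic antigen-presenting cells of F1 (BALB/c x C57BL/6) mice. Neither the removed part of Mthfd2 nor the cells that lost it are named in the labels. Separate mice or cultures behind the libraries of a group are not stated either, so a p-value here covers the spread of these libraries alone, and that spread may be technical.

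CD28 binds CD80 and CD86 on antigen-presenting cells and, together with the T cell receptor, drives IL-2 production, glucose uptake and survival. ICOS is also stimulatory and has its own ligand, and CTLA-4 takes CD80 and CD86 away from CD28. PD-1, LAG-3, TIM-3 (Havcr2), TIGIT, BTLA, CD160 and VISTA (Vsir) restrain the cell through other ligands, and several of these receptors are themselves induced by activation, which makes them markers of recent stimulation as well as brakes.

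Total counts lay between 14191401 and 15955863 per library. Each member had at least 204 counts in every library, all 10 passed the filter on low counts, and none had to be high in only 1 group to pass. Levels are given as CPM, counts per 1000000 after scaling by TMM, a method that equalises the bulk of genes between libraries. Mthfd2 itself had 222 and 252 CPM in KO libraries and 280 and 280 CPM in WT libraries (log2 fold change -0.24 ± 0.14, SE, edgeR quasi-likelihood adjusted p = 0.324), so its count did not separate the groups past the threshold, and the KO label rests on the submitters. WT replicate 1 lay apart on the first principal component, at -65.1 against -19.6 for WT replicate 2 and 43.8 and 40.9 for the KO libraries. Per kilobase of exon, Cd8a had 151 and 169 CPM in KO libraries and 147 and 130 CPM in WT libraries, above Cd4 with 43.1 and 47.8 CPM in KO libraries and 33.2 and 38.0 CPM in WT libraries. This goes against the label of CD4+ cells, and every value below is therefore that of the labelled library and not known to be that of CD4+ T cells.

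Markers of other cells moved with the groups. The 7 B cell markers summed to 355 and 324 CPM in KO libraries and to 973 and 588 CPM in WT libraries, with Cd79b and Pax5 called lower and none at 0. The 6 matched markers of all T cells summed to 2428 and 2501 CPM in KO libraries and to 1460 and 1721 CPM in WT libraries, with Cd3d, Cd3e and Cd3g called higher. The 10 myeloid and dendritic markers were low, with sums of 23.4 and 18.2 CPM in KO libraries and 58.7 and 39.3 CPM in WT libraries, and Siglech was at 0 in both KO libraries. In bulk libraries fewer cells of a type and less RNA per cell cannot be told apart. The part of these shifts in the results on the receptors was not tested, apart from the values given per CD3 count.

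Of the 10 receptors, Pdcd1 was called higher in KO libraries and 0 were called lower, at an adjusted p under 0.05 from edgeR's quasi-likelihood test with Benjamini-Hochberg adjustment over all 12752 tested genes. Over all tested genes 3.95% were called, 2.39% higher and 1.56% lower, so a single call among 10 genes gives little to read about the family. Both KO libraries lay above both WT libraries for 5 receptors (29.8% of all tested genes) and below them for 1 (30.1%), and the groups did not overlap for 6 of the 10 (59.9% of all tested genes). At an unadjusted p under 0.05, 5 receptors were higher (Pdcd1, Ctla4, Lag3, Cd160 and Cd28) and 1 was lower (Btla), 6 of 10 against 25.5% of all tested genes. DESeq2 called 3 higher (Pdcd1, Lag3 and Cd28) and 0 lower, where it called 13.4% of all genes it adjusted, and limma-voom called 1 higher and 0 lower, where it called 4.65%. The median log2 fold change of the 10 receptors was 0.64, beside -0.0026 over all tested genes and 0.69 over the 6 T cell markers.

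**Figure D1:**
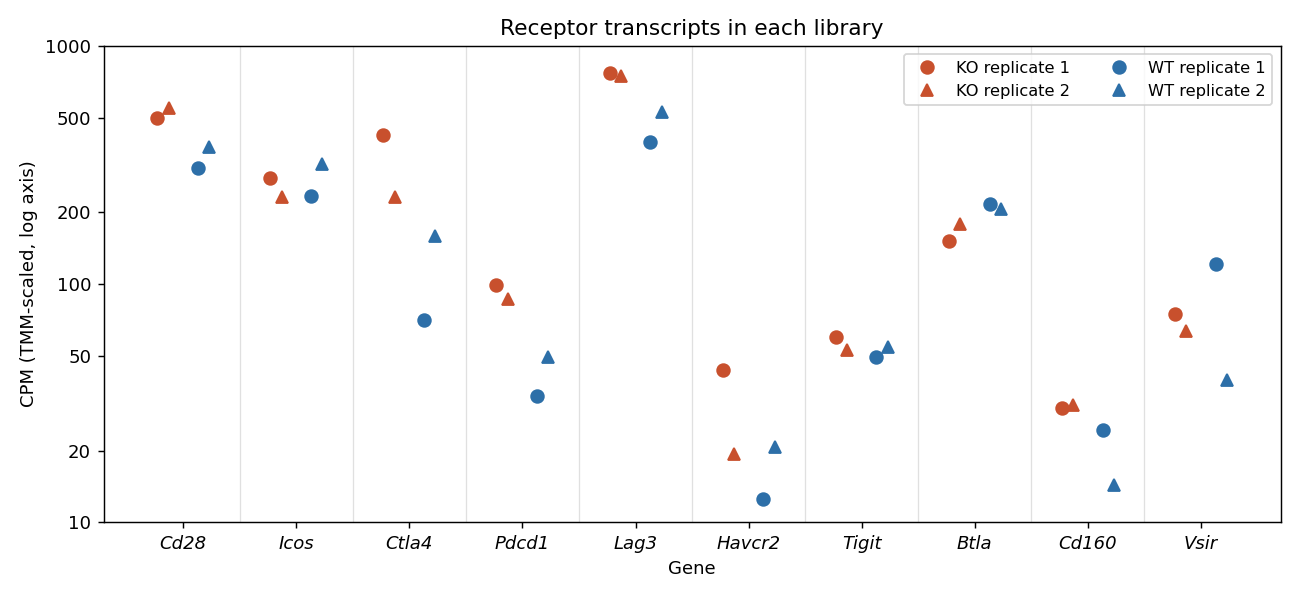
Level of each of the 10 receptors in each library, in TMM-scaled CPM on a log axis, with KO libraries in red left of WT libraries in blue, circles for replicate 1 and triangles for replicate 2. Both KO libraries lie above both WT libraries for Cd28, Ctla4, Pdcd1, Lag3 and Cd160 and below them for Btla, and the groups overlap for Icos, Havcr2, Tigit and Vsir.

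Pdcd1, which encodes PD-1, the receptor for PD-L1 and PD-L2 that dampens signalling from CD28 and the antigen receptor, had 99.2 and 86.4 CPM in KO libraries and 33.8 and 49.4 CPM in WT libraries. The groups did not overlap, and the gap between the groups was wider than the gap within either. The level was 2.23-fold that of WT (95% interval 1.55 to 3.21, log2 fold change 1.16 ± 0.22, SE, n = 2 per group), and the call was narrow (edgeR adjusted p = 0.0441). It held without WT replicate 1 (adjusted p = 0.0398, with 3.51% of all tested genes called) and without WT replicate 2 (adjusted p = 0.00196, with 19.8% called), and was lost without KO replicate 1 (adjusted p = 0.331) and without KO replicate 2 (adjusted p = 0.207), fits in which 0 of all tested genes were called and 1566 and 2097 had an unadjusted p under 0.05. The adjusted p was 0.0527 with upper quartile factors and 0.0515 with library size only. The gene (ENSMUSG00000026285.7) occupies bases 94038305 to 94052553 of chromosome 1 in GRCm38, on the minus strand. The 3 tested genes whose pattern over the 4 libraries lay nearest to it, by Euclidean distance of centred log2 CPM, were Selp (0.0748), Rnf125 (0.0850) and Tmsb10 (0.0850). Selp was low, between 1.16 and 3.82 CPM in every library. Selp and Rnf125 were not called, and Tmsb10 was called higher.

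Ctla4, which encodes the high-affinity competitor of CD28, had the largest fitted fold among the 10 but also one of the widest spreads. It had 424 and 231 CPM in KO libraries and 70.8 and 158 CPM in WT libraries. Again the groups did not overlap, with KO replicate 1 far above the rest and WT replicate 1 far below. The fitted level was 2.86-fold that of WT (95% interval 1.42 to 5.75, log2 fold change 1.51 ± 0.42, SE), which did not pass after adjustment (edgeR adjusted p = 0.0889). The log2 fold change was 1.05 without WT replicate 1 (adjusted p = 0.124), 1.01 without KO replicate 1 (adjusted p = 0.455), 1.89 without KO replicate 2 (adjusted p = 0.211) and 2.22 without WT replicate 2, where it was called (adjusted p = 0.00476). Regulatory T cells are known for constant CTLA-4 expression. Most of their 6 markers lay below WT in both KO libraries, as did 30.1% of all tested genes, and none of these markers was called. Foxp3 had 19.6 and 15.2 CPM in KO libraries and 31.6 and 25.8 CPM in WT libraries (edgeR adjusted p = 0.114). Ikzf2, Il2ra and Ikzf4 also lay below WT in both KO libraries (log2 fold change -0.38, -0.78 and -1.16). Nrp1 had 21.1 and 22.0 CPM in KO libraries and 8.49 and 9.26 CPM in WT libraries and was called higher (adjusted p = 0.0400), and the groups overlapped for Tnfrsf18. Their part in the level of Ctla4 was not tested.

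The promoter sequences of Pdcd1 and Ctla4 are shown because these receptors had the single call and the largest fold, and because NFAT, the factor that calcineurin sends to the nucleus after antigen receptor signalling, is known to act on both genes. The windows run from 250 bases before to 50 bases after the start site in RefSeq (GRCm38.p6), 5′ to 3′ on the gene's strand, and capitals mark GGAAA, the core that NFAT proteins bind, on either strand (as TTTCC where it lies on the other strand). The RefSeq start of Ctla4 lies inside the span that GENCODE gives the gene.
Pdcd1, chr1:94052504-94052803, minus strand: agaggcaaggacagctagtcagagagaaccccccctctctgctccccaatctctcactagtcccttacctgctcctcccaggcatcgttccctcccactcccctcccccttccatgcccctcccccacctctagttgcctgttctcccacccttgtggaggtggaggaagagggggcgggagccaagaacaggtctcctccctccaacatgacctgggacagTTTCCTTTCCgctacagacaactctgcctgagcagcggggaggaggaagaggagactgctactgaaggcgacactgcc
Ctla4, chr1:60908775-60909074, plus strand: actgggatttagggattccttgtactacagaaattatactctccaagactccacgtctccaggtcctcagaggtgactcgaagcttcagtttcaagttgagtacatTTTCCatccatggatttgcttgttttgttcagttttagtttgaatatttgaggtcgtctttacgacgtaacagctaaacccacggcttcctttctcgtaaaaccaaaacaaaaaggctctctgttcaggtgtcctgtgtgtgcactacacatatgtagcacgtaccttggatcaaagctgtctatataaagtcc
The Pdcd1 window held 2 such cores, next to each other at 28 and 23 bases before the start site, and the Ctla4 window held 1, at 144 bases before it. A GGAAA core was present in 61.3% of 32851 promoters of the same length, so its presence sets neither gene apart. The AP-1 motif TGANTCA, present in 7.81% of all promoters, was in neither window. Promoter entries were matched for 7 of the 10 genes, not for Lag3, Cd28 or Icos, and among these 7 Havcr2 alone held the AP-1 motif.

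Cd28 and Icos, the stimulatory receptors, differed in where their groups lay. Cd28 had 500 and 549 CPM in KO libraries and 307 and 375 CPM in WT libraries. KO libraries were above WT libraries without overlap, at 1.54-fold (95% interval 1.18 to 2.00, log2 fold change 0.62 ± 0.16, SE, edgeR adjusted p = 0.0744). Icos had 279 and 231 CPM in KO libraries and 235 and 321 CPM in WT libraries. The groups overlapped, at 0.919-fold (95% interval 0.666 to 1.27, adjusted p = 0.737), an interval that leaves room for changes in either direction.

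Cd28, Ctla4 and Icos lie in this order on the plus strand of chromosome 1, at 60716800 to 60773359, 60887000 to 60915832 and 60977927 to 61000320 (GRCm38), with no other protein-coding gene between them. The gaps are 113.6 kb between Cd28 and Ctla4 and 62.1 kb between Ctla4 and Icos. A ratio of counts within a library does not depend on scaling. Icos counts per Cd28 count were 0.559 and 0.422 in KO libraries and 0.764 and 0.856 in WT libraries, lower in both KO libraries. Ctla4 counts per Icos count were 1.52 and 0.999 in KO libraries and 0.301 and 0.494 in WT libraries, higher in both KO libraries. Ctla4 counts per Cd28 count, the pair that competes for CD80 and CD86, were 0.847 and 0.421 in KO libraries and 0.230 and 0.423 in WT libraries, where the groups overlapped and replicate 2 of each stood at nearly the same ratio. With 2 libraries per group the smallest exact two-sided permutation p for such a ratio is 0.333, so that test could not pass, and no other test of the ratios was run.

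**Figure D2:**
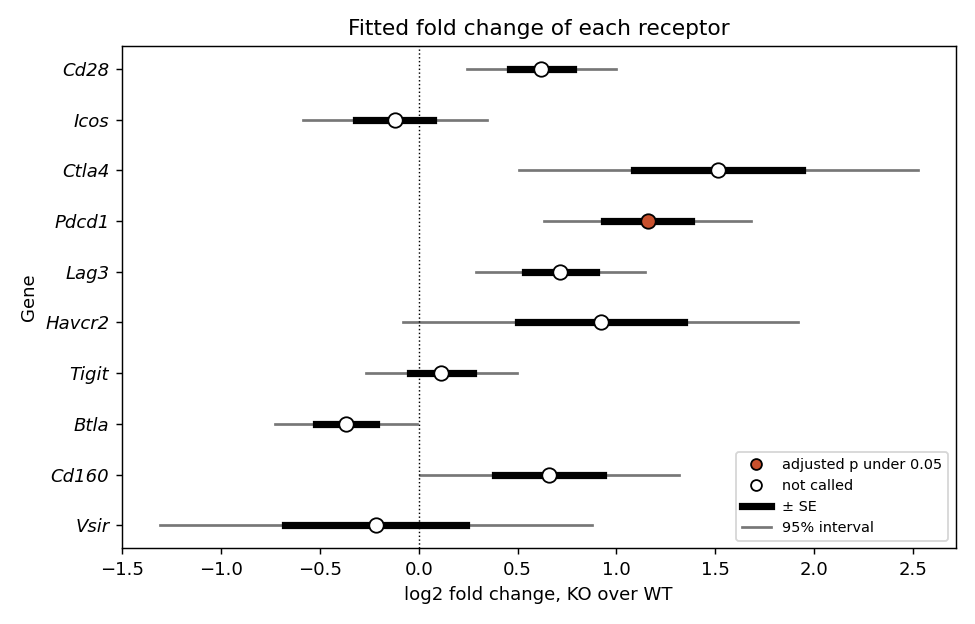
Log2 fold change of KO over WT for each receptor from the edgeR fit with n = 2 libraries per group, with thick bars for ± SE, thin bars for the 95% interval and a filled point where the adjusted p was under 0.05. Pdcd1 alone is filled, and the interval of Ctla4 is wide, from 0.51 to 2.52.

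Lag3, which encodes the MHC class II receptor LAG-3, was the most abundant receptor of the 10 in every library, by CPM and per kilobase of exon. It had 772 and 745 CPM in KO libraries and 394 and 529 CPM in WT libraries. Both KO libraries lay above both WT libraries and close together, at 1.64-fold (95% interval 1.22 to 2.21, log2 fold change 0.72 ± 0.18, SE, edgeR adjusted p = 0.0709). Lag3 lies 16.1 kb from Cd4 on the minus strand of chromosome 6 (124904361 to 124911705). Lag3 counts per Cd4 count were 4.44 and 3.87 in KO libraries and 2.94 and 3.46 in WT libraries, higher in both KO libraries.

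Havcr2, which encodes TIM-3, a receptor of strongly stimulated and exhausted cells, was among the 3 least abundant receptors per kilobase in every library (chromosome 11, 46454935 to 46481255, plus strand, GRCm38). It had 43.4 and 19.3 CPM in KO libraries and 12.5 and 20.7 CPM in WT libraries. KO replicate 1 stood above the other 3 libraries and the groups overlapped, at 1.89-fold (95% interval 0.947 to 3.78, edgeR adjusted p = 0.224). Without KO replicate 1 the log2 fold change was 0.22, against 0.92 with all libraries. KO replicate 1 was thus the highest library for both Havcr2 and Ctla4, as it was for Pdcd1, Lag3 and Tigit.

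Tigit, which encodes the inhibitory receptor for CD155 (Pvr), lay within the narrowest range of the 10 (chromosome 16, 43648867 to 43664146, minus strand). It had 59.7 and 52.8 CPM in KO libraries and 49.5 and 54.6 CPM in WT libraries, overlapping groups at 1.08-fold (95% interval 0.830 to 1.41, edgeR adjusted p = 0.694). Cd226, its stimulatory competitor for CD155, had 38.4 and 34.9 CPM in KO libraries and 55.8 and 41.9 CPM in WT libraries (log2 fold change -0.42 ± 0.19, SE, adjusted p = 0.229). Tigit counts per Cd226 count were 1.56 and 1.51 in KO libraries and 0.886 and 1.30 in WT libraries, higher in both KO libraries.

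Btla and Cd160 share a ligand, HVEM (Tnfrsf14), and leaned in opposite directions. Btla lies on chromosome 16 (45224315 to 45257670, plus strand) and Cd160 on chromosome 3 (96798763 to 96829351, minus strand). Btla, which both T and B cells express, had 152 and 178 CPM in KO libraries and 218 and 208 CPM in WT libraries. Both KO libraries lay below both WT libraries, at 0.776-fold (95% interval 0.604 to 0.996, log2 fold change -0.37 ± 0.15, SE, edgeR adjusted p = 0.191). The B cell marker Cd79a also lay below WT in both KO libraries, with 39.7 and 32.3 CPM in KO libraries and 99.8 and 64.2 CPM in WT libraries (adjusted p = 0.0504), and the part of B cells in the level of Btla was not tested. Cd160, a receptor of cytotoxic cells, had 30.1 and 31.0 CPM in KO libraries and 24.3 and 14.3 CPM in WT libraries, at 1.58-fold (95% interval 1.00 to 2.49, adjusted p = 0.193). It was called higher without WT replicate 1 (log2 fold change 1.10, adjusted p = 0.0452), and not without WT replicate 2 (0.34, adjusted p = 0.314), KO replicate 1 (0.68, adjusted p = 0.523) or KO replicate 2 (0.64, adjusted p = 0.463). Btla counts per Cd160 count were 5.03 and 5.74 in KO libraries and 8.95 and 14.5 in WT libraries.

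Vsir, which encodes VISTA, a receptor of quiescent T cells and of myeloid cells, was the least settled of the 10. It had 74.9 and 63.7 CPM in KO libraries and 121 and 39.7 CPM in WT libraries. Both KO libraries lay between the WT libraries, and the direction turned with the WT library used: the log2 fold change was -0.22 ± 0.46 (SE, edgeR adjusted p = 0.805) with all libraries, 0.81 without WT replicate 1 (adjusted p = 0.0639) and -0.80 without WT replicate 2, where it was called lower (adjusted p = 0.0164). The myeloid and B cell marker sums were highest in the same library, WT replicate 1. WT replicate 2, with the lowest Vsir level, also had higher sums than both KO libraries. Its myeloid sum was 39.3 CPM against 23.4 and 18.2 CPM, and its B cell sum 588 CPM against 355 and 324 CPM. The part of these cells in the level of Vsir was not tested. Vsir lies wholly within the span of Cdh23 on the opposite strand (chromosome 10, 60346851 to 60372684). Cdh23 had 226 and 164 counts in KO libraries and 90 and 155 in WT libraries, against 1060 and 888 for Vsir in KO libraries and 1985 and 588 in WT libraries, and reads from the opposite strand could not be told apart because the use of strand in counting is not given in the sources used here.

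Levels of different genes were compared per kilobase of merged exon. In KO libraries Lag3 led with a mean of 360 ± 9.09 CPM per kb (SD, n = 2), followed by Ctla4 (141 ± 58.4), Cd28 (85.7 ± 5.62), Icos (74.5 ± 9.87), Tigit (61.3 ± 5.32), Btla (48.6 ± 5.54) and Pdcd1 (48.1 ± 4.70). In WT libraries Lag3 led with 219 ± 45.3 CPM per kb (SD, n = 2), followed by Icos (81.0 ± 17.7), Btla (62.6 ± 2.09), Tigit (56.6 ± 3.90), Cd28 (55.7 ± 7.78), Ctla4 (49.2 ± 26.6) and Pdcd1 (21.6 ± 5.73). Vsir, Cd160 and Havcr2 came last in both groups, with means between 11.5 and 13.8 CPM per kb in KO libraries and between 6.09 and 16.1 CPM per kb in WT libraries. Ctla4 was the second of the 10 in both KO libraries, and the sixth in WT replicate 1 and the third in WT replicate 2. Among neighbours in these orders, the values of Btla and Pdcd1 and of Cd160 and Havcr2 overlapped in KO libraries. In WT libraries those of Tigit and Cd28, of Cd28 and Ctla4, of Pdcd1 and Vsir, of Vsir and Cd160 and of Cd160 and Havcr2 overlapped, so their order is not settled. With the length of the longest coding transcript in place of merged exons, the order in KO libraries was the same, and 6 of the 10 genes kept their place in WT libraries.

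The receptors were also set against T cell transcripts, because these were higher in KO libraries. Cd3d, Cd3e, Cd3g and Cd247, the CD3 and zeta chains of the antigen receptor complex, together had 1038 and 1018 CPM in KO libraries and 569 and 640 CPM in WT libraries. Per 1000 of these counts, Pdcd1 had 95.5 and 84.9 in KO libraries and 59.3 and 77.2 in WT libraries. It was the only receptor that lay above WT in both KO libraries on this scale, and the same was so with Trbc2 as the denominator. The share of all tested genes above WT on either scale is not given here. Lag3 had 744 and 732 per 1000 CD3 counts in KO libraries and 692 and 827 in WT libraries, and Ctla4 had 408 and 227 in KO libraries and 124 and 248 in WT libraries, both with overlapping groups.

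Per CD3 count, 4 receptors lay below WT in both KO libraries. The share of all tested genes that did so is not given here. Cd3d, Cd3e and Cd3g in the denominator were themselves called higher. The fit scaled to CD3 counts called 7112 of 12752 tested genes lower, so the count of 4 says little about the receptors. Btla had 146 and 175 per 1000 CD3 counts in KO libraries and 382 and 324 in WT libraries. Icos had 269 and 227 in KO libraries and 413 and 501 in WT libraries. Tigit had 57.5 and 51.9 in KO libraries and 86.9 and 85.2 in WT libraries, and Cd28 had 482 and 539 in KO libraries and 540 and 586 in WT libraries, where KO replicate 2 and WT replicate 1 all but met. With Trbc2 as the denominator Btla, Icos and Tigit lay below WT in both KO libraries, and the groups overlapped for Cd28. When the edgeR fit was scaled to the summed CD3 counts, 0 receptors were called higher (0 at an unadjusted p under 0.05) and Btla (log2 fold change -1.14), Icos (-0.88) and Tigit (-0.65) were called lower, but this scaling put the median of all tested genes at -0.77 and called 57.5% of them. Btla, Icos and Vsir (-1.03, not called) lay below that median and the other 7 receptors above it.

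**Figure D3:**
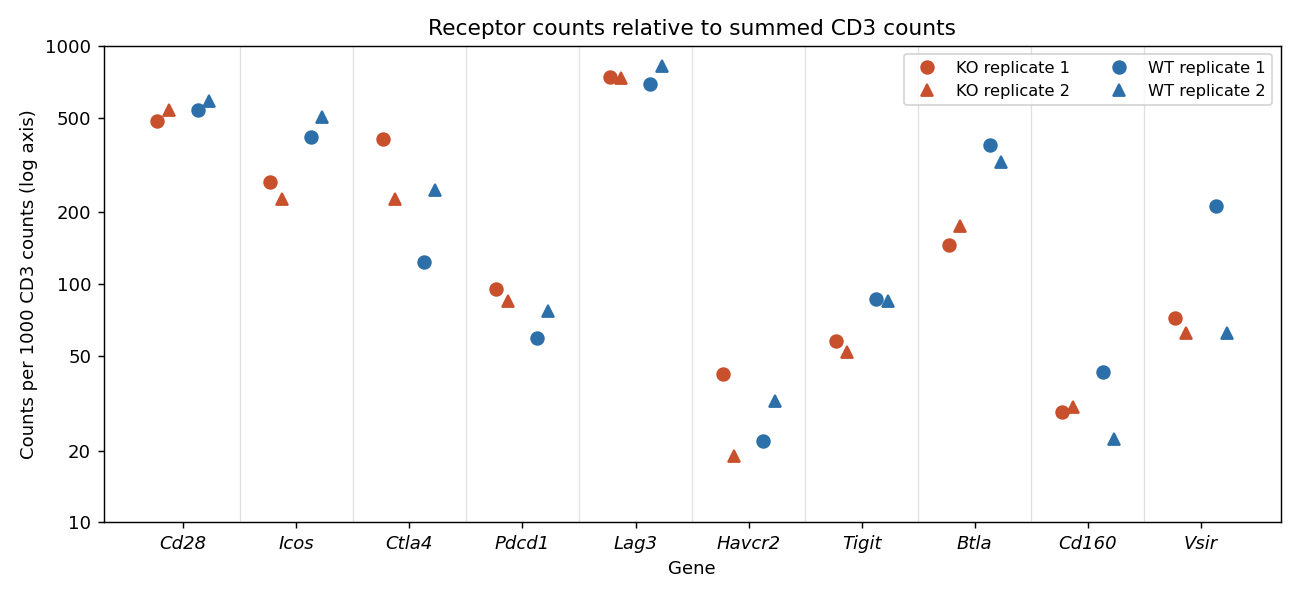
Counts of each receptor per 1000 summed counts of Cd3d, Cd3e, Cd3g and Cd247 in the same library, on a log axis, with KO libraries in red left of WT libraries in blue. On this scale both KO libraries lie above both WT libraries for Pdcd1 and below them for Cd28, Icos, Tigit and Btla.

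The ligands of these receptors gave 1 call among 14 tested genes of 17 listed, lower in KO libraries, and 0 higher. At an unadjusted p under 0.05, 2 were higher and 4 lower, and DESeq2 called 2 higher and 4 lower. Over all tested genes 3.95% were called and 25.5% had an unadjusted p under 0.05, and DESeq2 called 13.4% of the genes it adjusted. The called gene was Icosl, the ligand of ICOS, with 6.58 and 5.45 CPM in KO libraries and 35.2 and 18.6 CPM in WT libraries (log2 fold change -2.16 ± 0.36, SE, edgeR adjusted p = 0.0400). Neither KO library came near the WT levels. The receptor of this ligand, Icos, showed overlapping groups in the same libraries. The ligand list had a median log2 fold change of -0.44, and the B cell markers, whose cells also make this ligand, had a median of -1.19. The part of B cells in the level of Icosl was not tested. The untested genes of the list were Fgl1 and Vsig4, at 0 in every library, and Igsf11.

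Of the other co-receptors, 19 of 20 were tested and Cd96 was called higher, with 58.6 and 58.9 CPM in KO libraries and 27.1 and 32.0 CPM in WT libraries (log2 fold change 0.99 ± 0.17, SE, edgeR adjusted p = 0.0400). CD96 binds CD155 as TIGIT does, so among the CD155 receptors Cd96 was called and Tigit and Cd226 were not. The list had 0 calls lower. At an unadjusted p under 0.05, 7 were higher and 4 lower, and DESeq2 called 5 higher and 2 lower. The shares over all tested genes were 3.95% called, 25.5% at an unadjusted p under 0.05 and 13.4% by DESeq2. The median log2 fold change of the list was 0.15.

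Among 25 genes of signalling and receptor trafficking, all tested, 1 was called higher and 0 lower, with a median log2 fold change of 0.16. At an unadjusted p under 0.05, 5 were higher and 1 lower, and DESeq2 called 5 higher and 0 lower. The shares over all tested genes were 3.95% called, 25.5% at an unadjusted p under 0.05 and 13.4% by DESeq2, so these counts set the list little apart. The called gene was Pik3r1, the regulatory subunit of the phosphoinositide 3-kinase that CD28 and ICOS recruit, with 123 and 134 CPM in KO libraries and 60.8 and 68.7 CPM in WT libraries (0.99 ± 0.16, SE, edgeR adjusted p = 0.0397). Ptpn6 and Ptpn11, the phosphatases SHP-1 and SHP-2 that inhibitory receptors recruit, stood at 0.13 ± 0.14 and -0.017 ± 0.19 on the log2 scale (SE, edgeR adjusted p = 0.600 and 0.970).

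Of 22 transcription factors known to act on genes of inhibitory receptors, all tested, 1 was called higher and 2 lower, with a median log2 fold change of 0.24. Over all tested genes 2.39% were called higher and 1.56% lower. Tcf7, which encodes TCF-1 of naive and stem-like T cells, had 563 and 686 CPM in KO libraries and 286 and 338 CPM in WT libraries (edgeR adjusted p = 0.0400). Its call was lost without WT replicate 1 and with the CD3 scaling, and the call of Pik3r1 with the CD3 scaling. The calls of all 4 lists were lost in the fits without a KO library, which called 0 genes. Nr4a3, an orphan nuclear receptor induced by antigen receptor signalling, had 72.9 and 107 CPM in KO libraries and 363 and 262 CPM in WT libraries (log2 fold change -1.80 ± 0.25, SE, adjusted p = 0.0326). Irf4, also induced by that signalling, had 372 and 502 CPM in KO libraries and 1141 and 910 CPM in WT libraries (-1.23 ± 0.20, SE, adjusted p = 0.0400). Pdcd1 was thus higher in the libraries in which Nr4a3 and Irf4 were lower. The list did not lie one way. Over all 22 genes, the called ones included, 14 had a positive and 8 a negative log2 fold change. The groups overlapped for Nr4a1 and Nr4a2, and Nfatc1 and Nfatc2 lay above WT in both KO libraries without a call. Tox, known for exhausted cells, had 19.2 and 28.2 CPM in KO libraries and 17.0 and 20.9 CPM in WT libraries (adjusted p = 0.464).

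**Figure D4:**
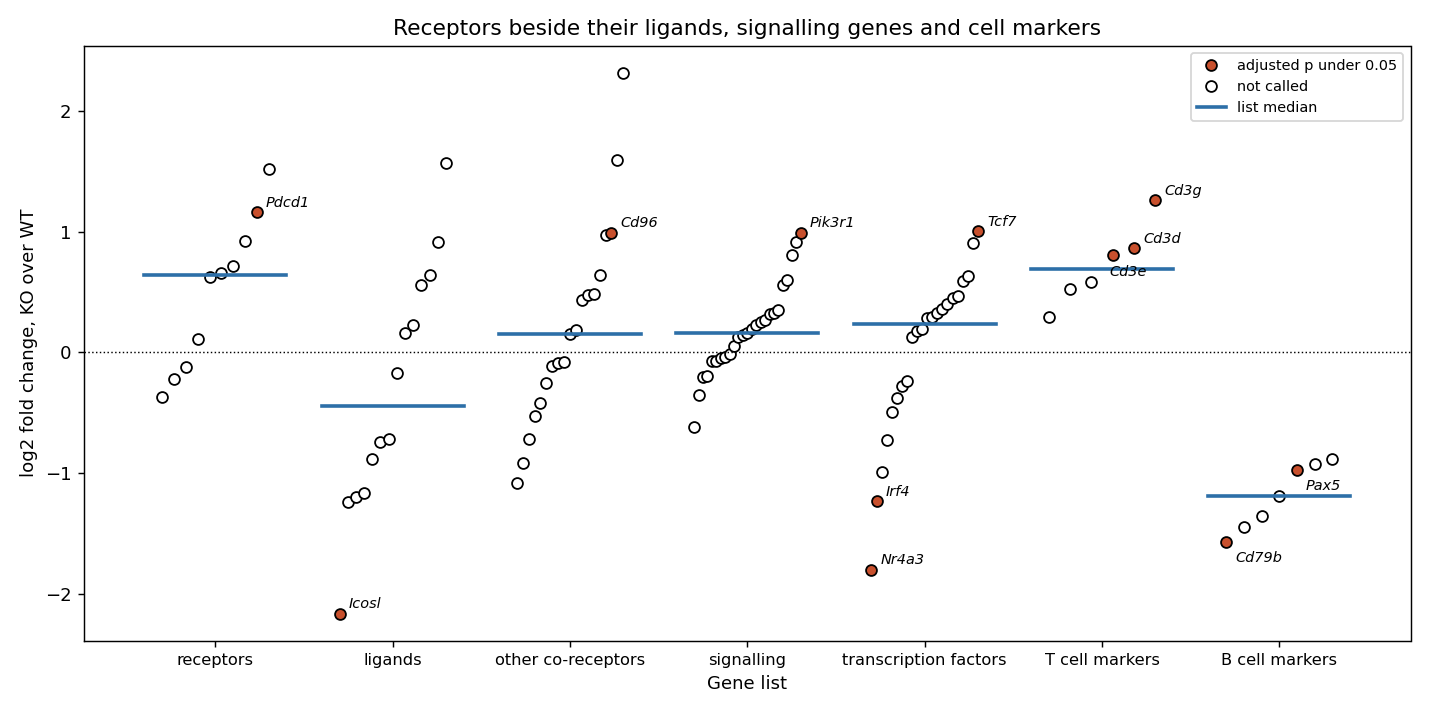
Log2 fold change of KO over WT for every tested gene of the receptor list, of 4 related lists and of the T cell and B cell markers, with filled and named points at an edgeR adjusted p under 0.05 and a blue line at each list's median. The receptor median (0.64) lies near that of the T cell markers (0.69), and the B cell markers (-1.19) lie lower.

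Other markers that the culture could hold gave the following summed levels. Regulatory T cell markers summed to 860 and 714 CPM in KO libraries and 1136 and 1359 CPM in WT libraries. Nrp1 was called higher, and 3 of 6 were lower at an unadjusted p under 0.05 that adjustment did not keep. Over all tested genes 3.95% were called and 25.5% had an unadjusted p under 0.05, in either direction. Most of each regulatory T cell sum was Il2ra, a gene that activated T cells also express. Il2ra had 673 and 564 CPM in KO libraries and 949 and 1168 CPM in WT libraries (edgeR adjusted p = 0.0568). Follicular helper markers summed to 117 and 118 CPM in KO libraries and 178 and 148 CPM in WT libraries. Markers of NK, innate-like and gamma-delta cells, led by Nkg7 and Klrk1, summed to 240 and 207 CPM in KO libraries and 159 and 138 CPM in WT libraries. Klrk1, which was called higher, had 107 and 82.0 CPM of these sums in KO libraries and 17.9 and 37.9 CPM in WT libraries, while Ncr1 lay the other way, with 0.778 and 0.287 CPM in KO libraries and 2.75 and 2.70 CPM in WT libraries (edgeR adjusted p = 0.0896). Plasma cell markers summed to 193 and 174 CPM in KO libraries and 284 and 254 CPM in WT libraries, with Jchain and Mzb1 called lower, and erythroid markers to 6.22 and 2.44 CPM in KO libraries and 120 and 29.2 CPM in WT libraries, with Hba-a2 called lower. The 3 CD8 markers summed to 1190 and 1254 CPM in KO libraries and 899 and 918 CPM in WT libraries, and the 3 CD4 markers to 249 and 261 CPM in KO libraries and 224 and 213 CPM in WT libraries. The part of these cells in the levels of the receptors was not tested.

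Fits with other settings called different shares of all tested genes, and the receptors called are to be read beside these. DESeq2 size factors in edgeR called 4.17% of all tested genes and 1 receptor, upper quartile factors 2.66% and 0 receptors, and library size only 3.24% and 0 receptors. Without the filter on low counts 7.73% of a larger set of genes and 4 receptors were called, and with the replicate number as a block 6.97% and 3 receptors.

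**Figure D5:**
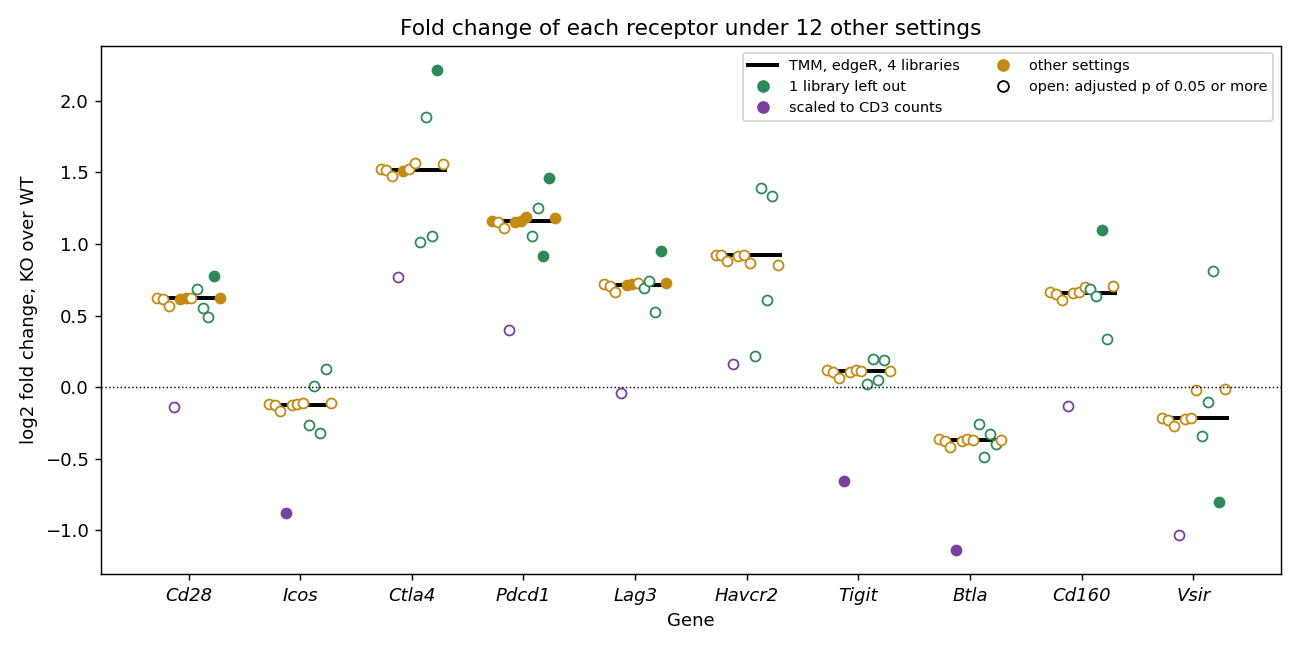
Log2 fold change of KO over WT of each receptor in 12 other fits, with a black line at the value from all 4 libraries and points filled where the adjusted p was under 0.05. Points for the CD3 scaling lie lowest for all 10 receptors, and those with 1 library left out spread widest for Ctla4, Havcr2 and Vsir.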

How the data were processed

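For each library the authors deposited a table of raw read counts, whole numbers, over 31748 gene symbols. The submitters' processing notes name featureCounts of Subread 2.0.1, the mm10 build, DESeq2 1.30.1 and R 4.0.4. They give no role or order, and the sources used here do not name an aligner, annotation or strand setting. The comparison of KO with WT used edgeR 4.0.16 (R 4.3.3): filterByExpr (minimum count 10, minimum total 15) kept 12752 genes, TMM scaled the libraries, and the quasi-likelihood test ran on 4 libraries with group as its only term. Adjustment was by Benjamini-Hochberg over all tested genes, with calls under 0.05. The SE is the log2 fold change divided by the square root of F, and 95% intervals multiply it by the t quantile at the fitted degrees of freedom, with no correction for the number of genes. DESeq2 1.42.0 and limma-voom (limma 3.58.1) were alternatives. Libraries of a group differed beyond counting error (chi-square per degree of freedom 16.1 for KO and 40.3 for WT). Positions and exon lengths are those of GENCODE on GRCm38 (mm10), counted from 1. All 10 receptors are named. Of the ligand, co-receptor, signalling and transcription factor lists the called genes are named, up to 5 a list, and any other gene named there was chosen after its values were seen. Of 151 entries in 15 lists 146 were matched, and Trac, Trbc1, Trdc, Tcrg-C1 and Hbb-bs were not, so Trbc2 alone was the second denominator. A further B cell marker, beside the 7 used, is not reported here. The receptors and lists were chosen with earlier results of these data known.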

Additional observations from a re-analysis of the deposited data

How the results depend on the processing

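Counts are given as higher and lower in KO libraries. With all libraries 305 and 199 genes were called, and 1 and 0 receptors. Upper quartile factors called 122 genes lower and 0 receptors higher, library size only 0 receptors higher, no filter on low counts 737 and 682 genes and 4 receptors higher (Pdcd1, Ctla4, Lag3 and Cd28), and DESeq2 860 and 783 genes and 3 receptors higher. The CD3 scaling called 220 and 7112 genes, and 0 and 3 receptors, and turned the sign of Lag3 (-0.042), Tigit (-0.65), Cd160 (-0.13) and Cd28 (-0.14). With 1 library left out, between 0 and 1423 genes were called higher, between 0 and 1101 lower, and between 0 and 4 receptors higher and 0 and 1 lower; the ends come from the fits without a KO library (0) and without WT replicate 2. The lone library is then assumed to vary like the other pair. With 1 library left out Icos lay between -0.32 and 0.13, with positive values without KO replicate 2 (0.0081) and WT replicate 2, and Vsir lay between -0.80 and 0.81, positive without WT replicate 1. The replicate numbers do not pair the libraries by any label, and deviations of same-numbered libraries correlated at 0.040; with the replicate block 488 genes were higher and 401 lower, and 3 receptors were higher (Pdcd1, Lag3 and Cd28). With the longest coding transcript, 6 of 10 receptors kept their rank in WT libraries. The cause of these differences was not tested. Each receptor had at least 204 counts in every library, and 2 libraries per group limit every call.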

Other observations

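Protein-coding neighbours of the receptors were read from the annotation after the values were seen. Ptms, which lies 2.0 kb from Lag3 on the side away from Cd4, had 329 and 313 CPM in KO libraries and 152 and 160 CPM in WT libraries (log2 fold change 1.04 ± 0.14, SE, edgeR adjusted p = 0.0292), while Cd4 on the other side stood at 0.35 ± 0.15 (SE, edgeR adjusted p = 0.209). Raph1, 149.7 kb from Cd28 on the side away from Ctla4, had 48.0 and 39.4 CPM in KO libraries and 19.3 and 23.7 CPM in WT libraries (edgeR adjusted p = 0.0455). Cd200, an immunoglobulin family protein 124.5 kb from Btla, had 68.4 and 92.7 CPM in KO libraries and 120 and 145 CPM in WT libraries (edgeR adjusted p = 0.0912). It lay below WT in both KO libraries, as did Btla and 30.1% of all tested genes. Atg3, the nearer neighbour of Btla at 35.8 kb on the other side, had a log2 fold change of -0.17 (edgeR adjusted p = 0.547). Ptms and Raph1 were the only neighbours called, beside 3.95% of all tested genes. The other tested neighbours, Fam174a, Cd4, Med7, Zbtb20, Atg3, Cd200, Rnf115, Pard3b, Cdh23, Gm17455 and the receptors Cd28, Ctla4 and Icos, were not.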
